A study of Rattus norvegicus with 16 samples.

Results

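The signalling genes described here are Cxcl1 and 9 other chemokines and cytokines of epididymal white adipose tissue (EWAT) of the rat, a visceral fat depot beside the epididymis. They are the neutrophil-attracting chemokines Cxcl1 and Cxcl2, the monocyte-attracting chemokines Ccl2 and Ccl7, the chemokines Cxcl10 and Cxcl12, and the cytokines Il1b, Tnf, Il6 and Il10. A gene was taken where the accession of an array probe maps to its symbol, which gave 10 genes on 11 probes out of 15168 genes on the array that could be named. Of these, 9 genes on 10 probes passed the filter on dim probes, which asked for signal well above background on 4 or more of 8 arrays in HFT or in HF, and Il6 did not. The genes were chosen on their levels and their HFT minus HF differences on these same arrays, so those differences are given as descriptions, without a test.

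HFT animals were male offspring of dams that took a grape seed procyanidin extract (GSPE, plant polyphenols) by mouth while pregnant and lactating, at 25 mg per kg body weight in a vehicle of low-fat condensed milk. HF animals were male offspring of dams given that milk alone. The dams of both groups ate a high-fat diet, and the pups of both groups ate it too after weaning at day 21, until they were killed at 30 days of age, fed and under pentobarbital. Each group held 8 animals with 1 array each, and a label such as HF 10 gives an animal's group and number. No animal without the high-fat diet was analysed here. The labels do not say which animals had the same dam, so p-values treat any littermates as independent.

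Chemokines are small secreted proteins that draw white blood cells along a gradient to the cells that made them. CXC chemokines such as Cxcl1 and Cxcl2 bind Cxcr2 on neutrophils, and CC chemokines such as Ccl2 and Ccl7 bind Ccr2 on monocytes. Many of these genes are switched on within hours by the transcription factor NF-kB when a cell senses Il1b, Tnf or microbial products, and in adipose tissue fat cell precursors, vessel cells and macrophages can make them.

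Promoter sequences of Cxcl1 and Cxcl2 are shown because these neighbouring genes moved together between animals, as described further down. Both lie on chromosome 14 with 0 protein-coding genes between them, and Ccl2 and Ccl7 lie together on chromosome 10, also with 0 between them. Ccl2 and Ccl7 moved together as well (correlation r = 0.96, beside 0.90 for Cxcl1 and Cxcl2), but Ccl2 had no promoter sequence to show. Whether promoter letters go with moving together was not tested. Each sequence runs 5′ to 3′ on the gene's own strand from 250 bases before the start of the gene to 50 bases after it, from RefSeq, build GRCr8. Capitals mark matches to a form of the NF-kB site, GGG followed by any 2 bases and then TTTCC, searched on both strands (on the other strand it reads GGAAA, any 2 bases, CCC). Cxcl1 is at chr14:17479272-17479571 and Cxcl2 at chr14:17467206-17467505, both on the minus strand.
Cxcl1: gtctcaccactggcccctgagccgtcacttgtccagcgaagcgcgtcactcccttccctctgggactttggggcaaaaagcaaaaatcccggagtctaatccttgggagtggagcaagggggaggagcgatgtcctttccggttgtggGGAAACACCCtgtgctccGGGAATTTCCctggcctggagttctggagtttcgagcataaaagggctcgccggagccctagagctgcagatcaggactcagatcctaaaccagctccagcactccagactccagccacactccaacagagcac
Cxcl2: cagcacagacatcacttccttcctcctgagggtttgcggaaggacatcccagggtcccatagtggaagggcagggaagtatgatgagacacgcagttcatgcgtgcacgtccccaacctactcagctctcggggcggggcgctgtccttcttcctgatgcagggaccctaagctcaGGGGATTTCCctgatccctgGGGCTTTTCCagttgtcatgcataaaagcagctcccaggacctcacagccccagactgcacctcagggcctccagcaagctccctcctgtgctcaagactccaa

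The Cxcl1 window held 2 matches, GGAAACACCC on the opposite strand at 102 to 93 bases before the start and GGGAATTTCC at 84 to 75 bases before it. The Cxcl2 window also held 2, GGGGATTTCC at 74 to 65 and GGGCTTTTCC at 54 to 45 bases before the start. Of the 10 genes, 8 had a promoter in the RefSeq table (Ccl2 and Il10 did not), and among these Il6 held 1 match, GGGATTTTCC at 68 to 59 bases before the start. The letters were not found in the windows of Ccl7, Cxcl10, Cxcl12, Il1b and Tnf. Other forms of the NF-kB site were not searched, so a window without these letters may hold another form. Over all 33469 promoters of the table, 512 (1.53%) held the motif. A match is a run of letters, and binding was not measured.

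A level below is the log2 of a probe's processed spot intensity minus the 75th percentile of its array, so 0 is that percentile and 1 unit is a doubling of signal. The 75th percentile lay between 753 and 1366 intensity units, and 68.2% to 73.5% of the probes were well above background on an array. Levels of different probes are not comparable. All 10 adipocyte markers found on the array passed the filter, with a median over the markers of 3.36 to 4.40 in HFT animals and 3.76 to 4.59 in HF animals. Some arrays stood apart. Lcn5, a lipocalin of the epididymis, was at least 8.63 units above the median array on HFT 23, HFT 28 and HF 8, and the median of genes of the urothelium, the bladder lining, was at least 8.04 units high on HFT 22, HFT 24 and HF 35. The median of 10 liver genes was highest on HFT 36 (0.040) and HF 10 (0.39), against -5.37 to -1.07 on the other 14 arrays. The 16 arrays filled 4 slides with 2 animals of each group on every slide, at positions that cannot be told apart from group.

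Cxcl1, a chemokine that attracts neutrophils through Cxcr2, had levels of -4.45 (lowest), -3.94 (median) and -2.32 (highest) in HFT animals, against -4.67, -1.45 and 0.19 in HF animals. All 8 HFT animals were below the HF mean, which was true of 1.11% of the 21808 probes kept. The groups still overlapped: 5 HF animals (8, 9, 11, 13 and 35) were above the highest HFT animal, HFT 25, while HF 10, at -4.67, was the lowest animal of all. The mean was -3.75 ± 0.77 in HFT and -1.69 ± 1.57 in HF (SD, n = 8 each), a difference of -2.05 (95% interval -3.28 to -0.82), or 4.15-fold lower signal in HFT. No probe of the 21808 passed the adjusted threshold of 0.05 in limma (0%), where 515 (2.36%) had an unadjusted p under 0.05, 1.23% with lower and 1.13% with higher signal in HFT. Within the 4 slides the HFT minus HF difference was -3.55, -0.64, -2.81 and -1.22. In whole tissue, fewer cells that make a transcript and less transcript per cell cannot be told apart.

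The gap in Cxcl1 depended in size on single animals. It was -2.48 without HF 10 and -1.78 without HF 8, and -1.53 without the 6 arrays that were high for Lcn5 or urothelial genes. The spots of the Cxcl1 probe, 10 on each array, had a median SD of 0.090 log2 units, far below the spread between animals.

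Cxcl2, which also acts on neutrophils through Cxcr2, had levels of -6.39, -5.22 and -4.05 (lowest, median and highest) in HFT animals, against -7.17, -2.94 and -2.24 in HF animals. It was above background on all 8 HFT arrays and on 7 HF arrays, the exception being HF 10, whose level is therefore uncertain. As with Cxcl1, the HF mean was above all 8 HFT animals, and 6 HF animals (all but 10 and 14) lay above the highest HFT animal, HFT 36. The mean was -5.24 ± 0.92 in HFT and -3.65 ± 1.75 in HF (SD, n = 8 each), a difference of -1.59 (95% interval -2.98 to -0.21), or 3.02-fold lower. The difference was below 0 on every slide (-2.0, -0.62, -3.13 and -0.62). It was -2.10 without HF 10 and -1.17 without the arrays high for Lcn5 or urothelial genes. With another background correction and quantile normalization it was -0.83.

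**Figure D1:**
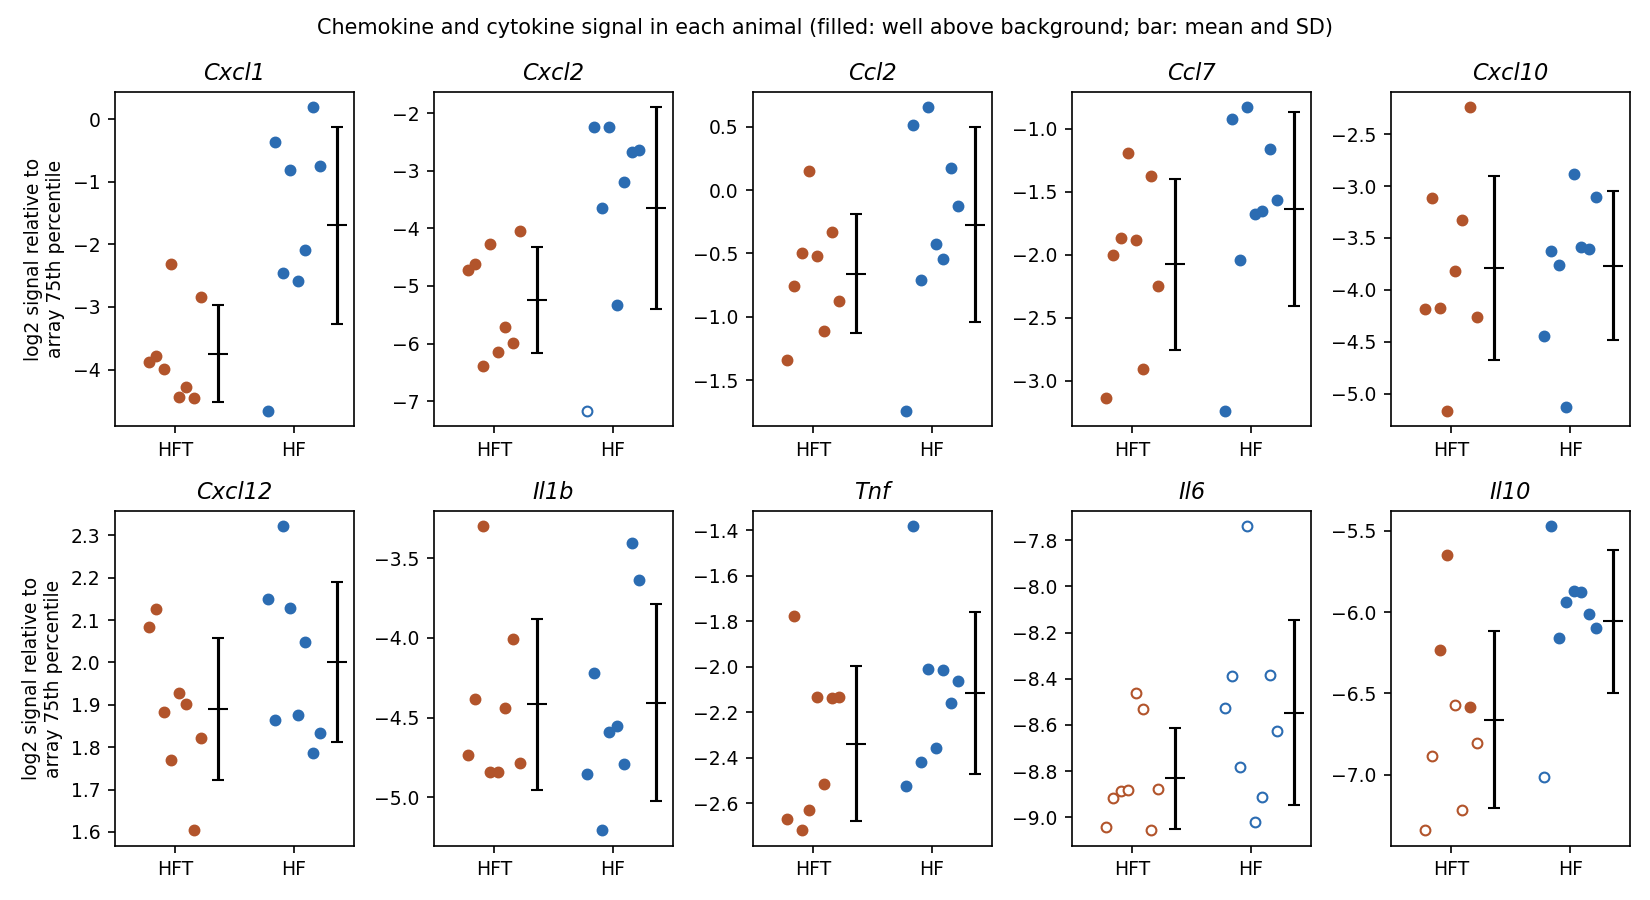
Level of each of the 10 genes in each animal (log2 intensity minus the array's 75th percentile), with HFT left of HF in each panel, group mean and SD as bars, and open points where the probe was not well above background. Cxcl1 and Cxcl2 show the widest HF spread, with HF 10 at the bottom (-4.67 and -7.17), while Il6 is open on all 16 arrays.

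Ccl2, the main attractant of monocytes, had levels of -1.34, -0.64 and 0.15 (lowest, median and highest) in HFT animals, against -1.75, -0.27 and 0.65 in HF animals. The groups overlapped over most of their range, and 3 HF animals (8, 11 and 13) exceeded the highest HFT animal, HFT 25. The mean was -0.66 ± 0.47 in HFT and -0.27 ± 0.77 in HF (SD, n = 8 each), a difference of -0.39 (95% interval -1.02 to 0.25). That value was -0.60 without HF 10 and -0.25 without HF 13, and on slide 2 it was above 0 (0.44).

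Ccl7, another ligand of Ccr2, had levels of -3.14, -1.94 and -1.19 in HFT animals, against -3.24, -1.61 and -0.83 in HF animals. The animals fell in nearly the order seen for Ccl2, with HFT 22 and HF 10 lowest in their groups and HFT 25 highest in HFT. The mean was -2.08 ± 0.68 in HFT and -1.64 ± 0.77 in HF (SD, n = 8 each), a difference of -0.44 (95% interval -1.16 to 0.28), with 0.55 on slide 2. It was -0.67 without HF 10 and -0.29 without HFT 22.

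Cxcl10, an interferon-induced chemokine that binds Cxcr3 on T cells, had levels of -5.17, -4.00 and -2.24 in HFT animals, against -5.13, -3.62 and -2.89 in HF animals. The group ranges nearly coincided, with HFT 28 the highest and HFT 25 the lowest of the 16. The mean was -3.79 ± 0.89 in HFT and -3.77 ± 0.72 in HF (SD, n = 8 each), a difference of -0.018 (95% interval -0.82 to 0.78). Its sign turned with the animals kept: the difference was -0.24 without HFT 28 and 0.18 without HFT 25.

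Cxcl12, which guides cells through Cxcr4 and is made steadily by stromal cells, had levels of 1.60, 1.89 and 2.13 in HFT animals, against 1.79, 1.96 and 2.32 in HF animals. On this probe, the brighter of its probes, it varied least between animals of the genes above background on all arrays. The mean was 1.89 ± 0.17 in HFT and 2.0 ± 0.19 in HF (SD, n = 8 each), a difference of -0.11 (95% interval -0.31 to 0.085), and -0.066 without HF 12. A second Cxcl12 probe averaged 1.84 ± 0.39 in HFT and 1.81 ± 0.53 in HF (SD, n = 8 each), a difference of 0.025 (95% interval -0.44 to 0.49). The probes thus differ in sign, and the second varied more between animals.

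Il1b, an early inflammatory cytokine released chiefly by macrophages, had levels of -4.84, -4.59 and -3.30 in HFT animals, against -5.21, -4.57 and -3.40 in HF animals. HFT 24, HF 8 and HF 9 stood highest, and the groups overlapped throughout. The mean was -4.42 ± 0.54 in HFT and -4.41 ± 0.62 in HF (SD, n = 8 each), a difference of -0.0090 (95% interval -0.59 to 0.57). It was -0.17 without HFT 24 and 0.13 without HF 8.

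Tnf, a cytokine that macrophages of fat tissue make and that blunts insulin action, had levels of -2.72, -2.33 and -1.78 in HFT animals, against -2.52, -2.11 and -1.38 in HF animals. Only HF 11 lay above the highest HFT animal, HFT 23. The mean was -2.34 ± 0.34 in HFT and -2.12 ± 0.35 in HF (SD, n = 8 each), a difference of -0.22 (95% interval -0.58 to 0.13). It was -0.12 without HF 11, -0.36 without the arrays high for Lcn5 and -0.091 without those high for urothelial genes.

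Il10, a cytokine that restrains macrophages, was dim: it was above background on 3 HFT arrays and 7 HF arrays, and passed the filter only through HF. Its levels were -7.34, -6.70 and -5.65 in HFT animals, against -7.02, -5.98 and -5.47 in HF animals. HFT 25, the HFT animal highest in Cxcl1, was also the highest in Il10, and HF 10 was the lowest HF animal. The mean was -6.66 ± 0.54 in HFT and -6.06 ± 0.44 in HF (SD, n = 8 each), a difference of -0.61 (95% interval -1.10 to -0.11) between values near background. On slide 2 it was above 0 (0.30), and with another background correction and quantile normalization it was -0.11. Il6, a cytokine of the acute phase, was above background on 0 of the 16 arrays, with readings of -9.06 to -8.46 in HFT and -9.02 to -7.74 in HF, and gets no comparison.

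The 9 measured genes all had a mean difference below 0 on their brightest probe, beside 56.2% of all 21808 probes. The genes were chosen with these differences known, so the count is no evidence of a shared fall. Il10 is among the 9 only through its HF arrays, and Cxcl10 (-0.018) and Il1b (-0.0090) changed sign between fits. A difference of -1 or lower was found for Cxcl1 and Cxcl2, beside 0.138% of all probes. Groups that do not overlap were found for none of the 9 genes and for 0% of all probes.

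**Figure D2:**
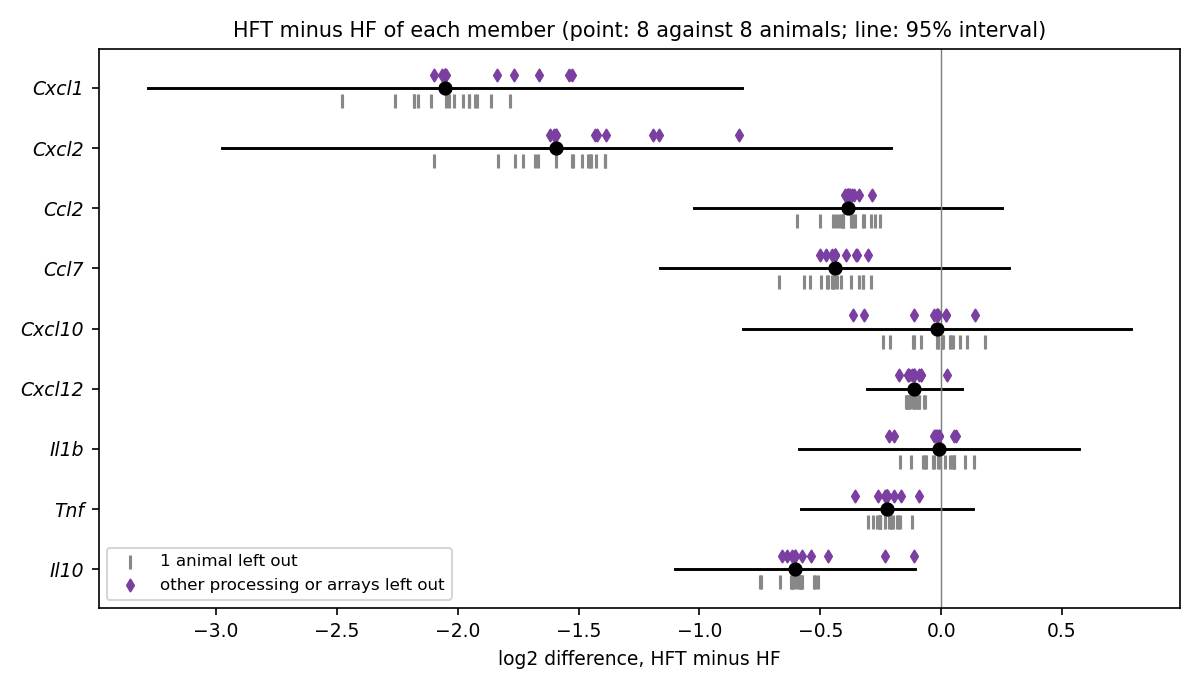
HFT minus HF of the 9 measured genes in log2 units, with the 95% interval, values under other processing or with the arrays of other tissue left out (diamonds), and values with 1 animal left out (grey ticks). Cxcl1 (-2.05) and Cxcl2 (-1.59) lie farthest below 0, and Il10 has a diamond at -0.11 far from its -0.61.

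The next comparison asked which of these genes followed Cxcl1 between animals of the same group. Each gene's values were centred on its group mean, which takes the HFT and HF difference out, and correlated with Cxcl1 over the 16 animals with permutations within groups and adjustment over the 8 genes. Cxcl2, Ccl2 and Ccl7, which were above background on nearly all arrays, passed on Pearson's r. Il10 made the count 4, but 5 of its 8 HFT values and its HF 10 value were not above background, so nothing is drawn from its p. All 4 take their strength in part from HF 10, which was the lowest HF animal in each of them.

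Cxcl2 followed Cxcl1 most closely, with r = 0.90 (adjusted permutation p = 0.00024) and rho = 0.84 (adjusted permutation p = 0.00152). Without HF 8 and HF 10, the animals farthest from the median in Cxcl1, r was 0.84, and without HF 10 alone it was 0.80 (adjusted permutation p = 0.00128). The relation held within each group, with r = 0.82 in HFT (exact permutation p = 0.00593, n = 8) and 0.92 in HF (exact permutation p = 0.00119, n = 8). Exact p within a group are not adjusted unless said. A limma fit over 21807 probes, with group and Cxcl1 as terms, was added after the data were seen. It used the same arrays, so it is no independent evidence. In that fit Cxcl2 rose by 1.01 (SE 0.13) per unit of Cxcl1, and its adjusted p of 0.0258 was the sole call (0.00459% of probes). Without HF 10 the slope was 0.85 (SE 0.17) and 0 probes passed (0%).

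Ccl2 and Ccl7 followed Cxcl1 with r = 0.79 and 0.70 (adjusted permutation p = 0.00756 and 0.0130). On ranks neither passed, with rho = 0.62 and 0.56 (adjusted permutation p = 0.0831 for both). In HFT animals r was 0.36 for Ccl2 (exact permutation p = 0.372, n = 8) and 0.27 for Ccl7 (exact permutation p = 0.530, n = 8). In HF animals r was 0.92 for Ccl2 (exact permutation p = 0.00263, n = 8) and 0.91 for Ccl7 (exact permutation p = 0.00350, n = 8). Whether r differs between HFT and HF was not tested. Leaving out HF 8 and HF 10 gave r = 0.62 for Ccl2 and 0.46 for Ccl7, and without HF 10 alone neither passed (adjusted permutation p = 0.103 and 0.140).

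Il10 had r = 0.59 (adjusted permutation p = 0.0253), but rho was 0.29 (adjusted permutation p = 0.326) and r was 0.43 without HF 8 and HF 10. Its HFT values were above background on 3 arrays only. It did not pass with quantile normalization (r = 0.50, adjusted permutation p = 0.079), with normexp and quantile normalization (r = 0.40, adjusted permutation p = 0.191) or in the authors' deposited table (r = 0.44, adjusted permutation p = 0.176). Tnf (r = 0.39, rho = 0.33) and Il1b (r = 0.37, rho = 0.38) did not pass, with adjusted permutation p of 0.213 and 0.221 on r and 0.285 for both on rho. Without HF 8 and HF 10 these r were 0.31 and 0.12. Cxcl12, on its brighter probe, had r = -0.43 and rho = -0.37 (adjusted permutation p = 0.204 and 0.285). Its 2 probes differed in sign: the slope on Cxcl1 within groups was -0.062 (SE 0.038) on the brighter probe and 0.13 (SE 0.092) on the second. Cxcl10 had r = -0.18 and rho = -0.23 (adjusted permutation p = 0.491 and 0.391). In HFT animals Cxcl10 ran opposite to Cxcl1 (r = -0.75, exact permutation p = 0.0317, or 0.127 adjusted over the 8 genes, n = 8), with HFT 25 high in Cxcl1 and lowest in Cxcl10, while in HF r was 0.13 (exact permutation p = 0.734, n = 8).

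With slide as well as group centred out, 256 exact permutations remain and the smallest possible p is 0.0078. There r was 0.95 for Cxcl2, 0.93 for Ccl2, 0.91 for Ccl7, 0.94 for Il10 and 0.77 for Tnf, and none passed after adjustment (exact permutation p adjusted to 0.075 for Cxcl2 and 0.0625 for the other 4).

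**Figure D3:**
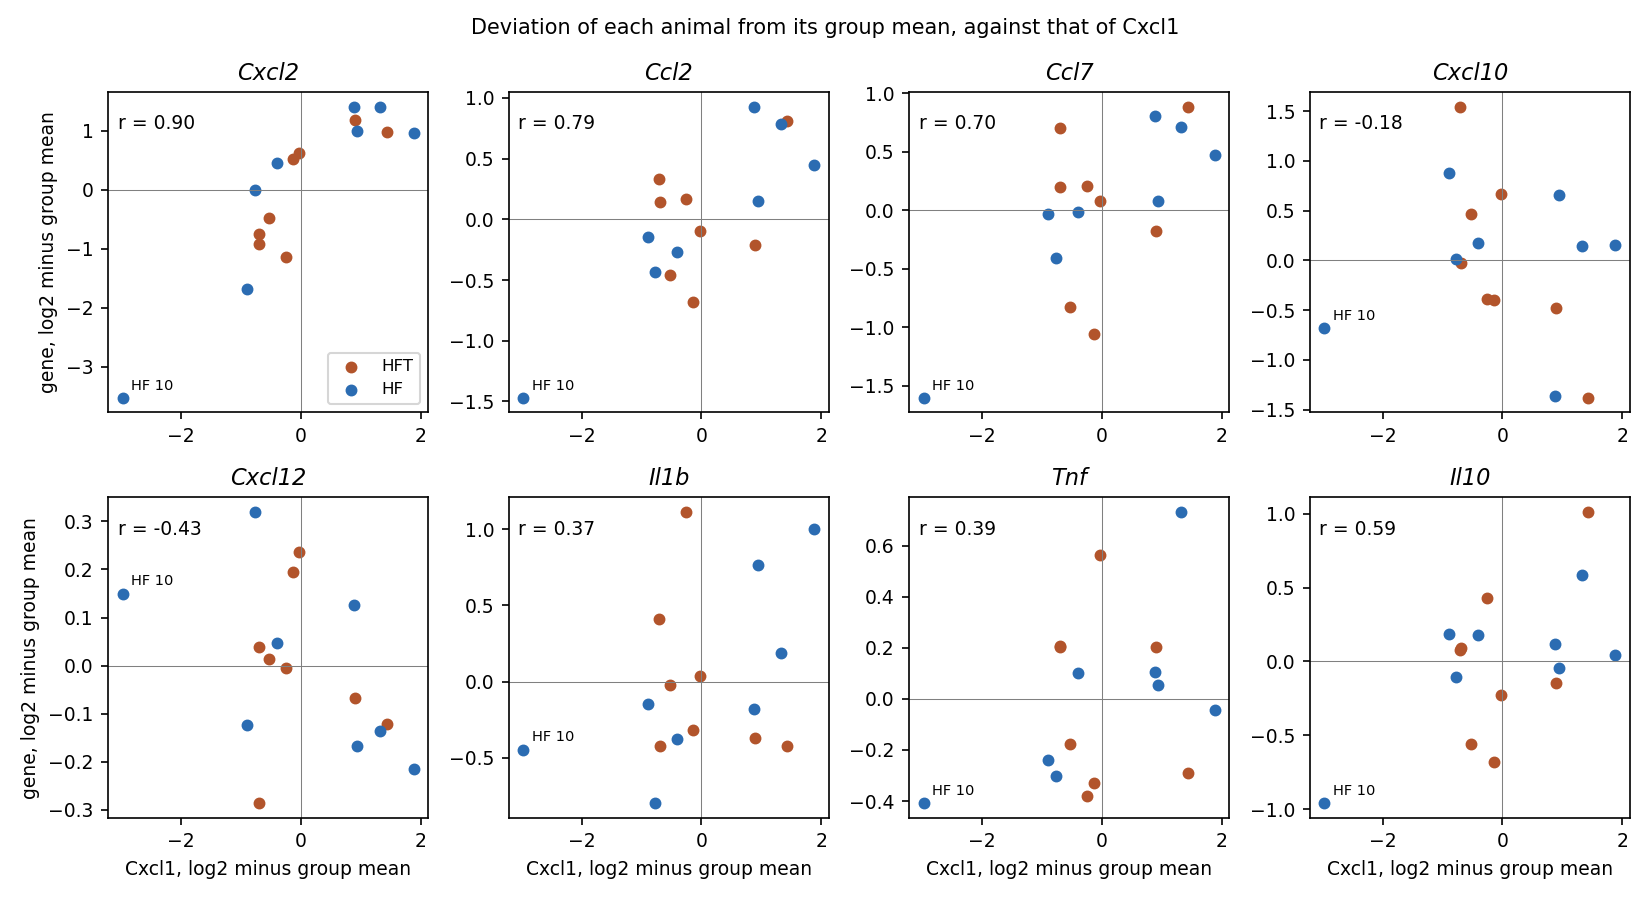
Deviation of each gene from its group mean (y, log2 units) against that of Cxcl1 (x, log2 units), 1 point per animal, for the 8 measured genes beside Cxcl1, with HF 10 labelled and r over the 16 animals in each panel. Cxcl2 has the highest r (0.90). HF 10 sits far at the lower left in Cxcl2, Ccl2, Ccl7 and Il10, and its Cxcl2 and Il10 values are not above background. Cxcl10 shows no upward trend (r = -0.18).

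Among all 36 pairs of the 9 genes, the closest was Ccl2 with Ccl7, closer than either was to Cxcl1. Their r was 0.96 and their rho 0.98 (adjusted permutation p = 0.00036 for both, over 36 pairs), and r was 0.94 both without HF 10 and without the 2 animals farthest from the median in Ccl2. Cxcl2 with Ccl2 had r = 0.65 and rho = 0.51, which did not pass (adjusted permutation p = 0.0879 and 0.186). Whether these r differ from each other was not tested.

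Among the named genes with a probe that passed the filter, Cxcl2 ranked 1, Ccl2 3, Ccl7 10 and Il10 28 of 11590 genes by r with Cxcl1. Tnf ranked 354, Il1b 410, Cxcl10 8666 and Cxcl12, on its brighter probe, 11222. The median r over these genes was -0.028, and 109 genes (0.9405%) had r of 0.5 or more. Apart from the genes above, the 10 with the highest r were Virma (0.79), Egr2 (0.77), Socs3 (0.77), Has1 (0.76), Irf1 (0.74), Ccl3 (0.71), Junb (0.71), Btd (0.69), Fos (0.67) and Abo (0.66). These 10 were picked for their r, which gets no p here; Socs3, Junb and Fos are also among the genes listed for comparison with Cxcl1, described further down. Egr2, Junb and Fos are immediate early transcription factors, Socs3 is a feedback inhibitor of cytokine receptors, Irf1 is an interferon-response transcription factor, Ccl3 is a chemokine of macrophages, Has1 makes hyaluronan, Virma is part of the RNA methylation machinery and Btd recycles biotin. Without HF 10, r was 0.43 for Fos, 0.46 for Ccl3 and 0.75 for Abo. Virma was dim, with mean levels of -6.30 in HFT and -6.78 in HF. Unlike Cxcl1, Virma and Abo had an HFT minus HF difference above 0 (0.48 and 0.070).

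**Figure D4:**
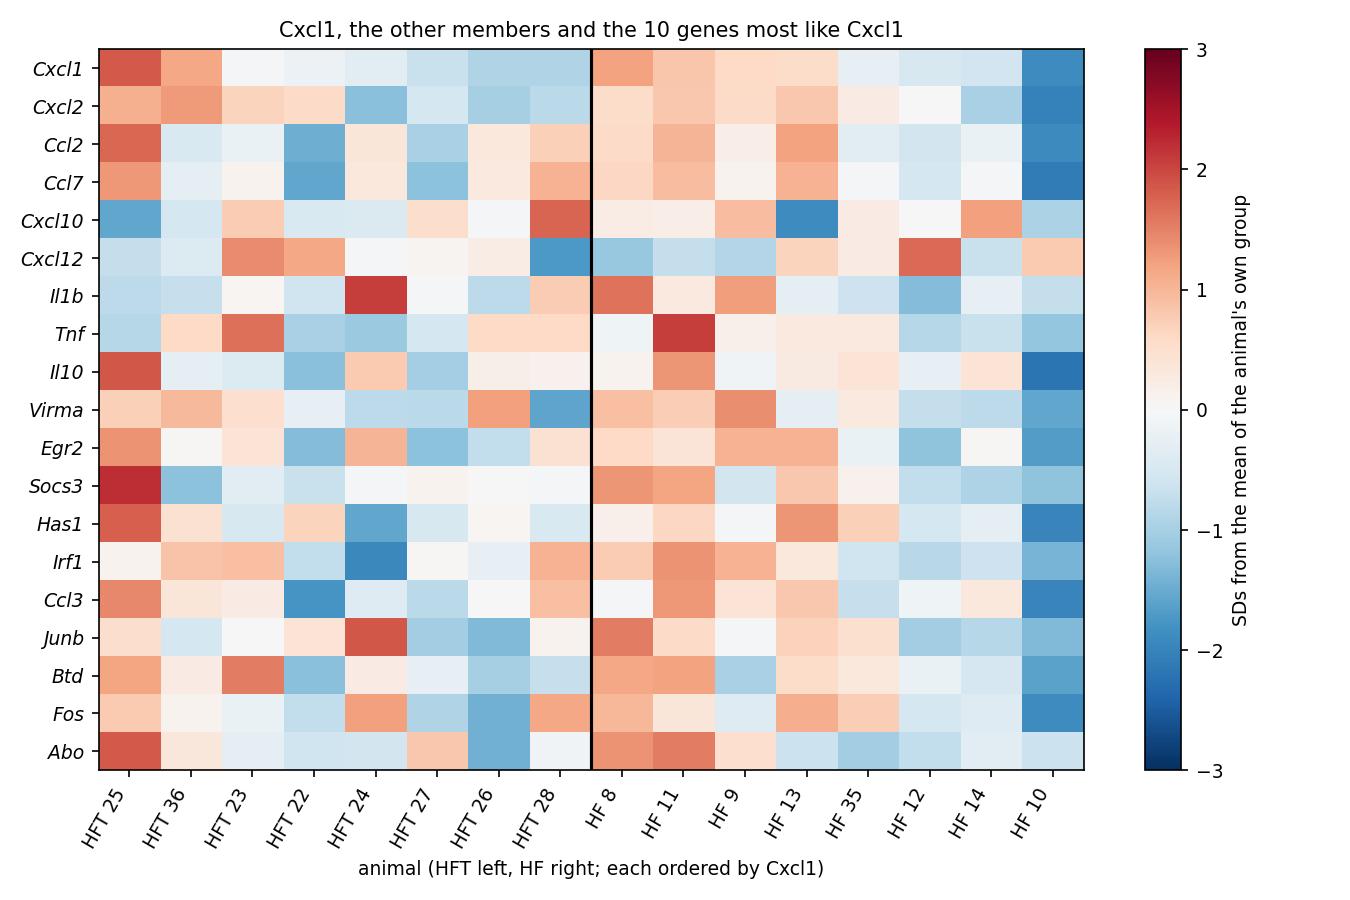
Cxcl1, the 8 other measured genes and the 10 genes most like Cxcl1 (rows) in each animal (columns, HFT left and HF right, each ordered by Cxcl1), coloured by SDs from the animal's own group mean. HF 10 is low in most rows beside Cxcl1 (-1.89 SDs), including Cxcl2 (-2.02) and Ccl2 (-1.91), and HFT 25 is high in Cxcl1 (1.85), Cxcl2, Ccl2, Ccl7 and Il10.

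On the receiving side, Cxcr2, the neutrophil receptor of Cxcl1 and Cxcl2, differed by -0.0015 (SE 0.27) between HFT and HF and had r = -0.090 with Cxcl1. Ccr2, the receptor of Ccl2 and Ccl7, was above background on 3 HFT and 3 HF arrays and was not compared. Cxcr3, the receptor of Cxcl10, differed by 0.82 (SE 0.37), and the Cxcl12 receptors Cxcr4 and Ackr3 by 0.11 (SE 0.22) and -0.16 (SE 0.18). Of 22 chemokine receptors listed, 11 passed the filter, 0 passed the adjusted threshold (0% of all probes), and their median difference was 0.092 beside -0.010 over all genes. Of 9 receptors of Il1b, Tnf, Il6 and Il10, 7 passed the filter, with 0 past the adjusted threshold and a median difference of 0.032. Among these Tnfrsf1a and Tnfrsf1b, which bind Tnf, differed by 0.13 (SE 0.099) and 0.032 (SE 0.099), and the Il6 receptor chains Il6r and Il6st by 0.17 (SE 0.15) and -0.17 (SE 0.16).

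Of 31 other chemokine ligands, 22 passed the filter and 0 passed the adjusted threshold. Of the 22, 10 were below 0 and 12 above, where 56.2% of all probes were below 0. The median difference was 0.036 beside -0.010 over all genes. The differences of these ligands ran between -0.86 and 0.62. The upper end was Cxcl11, which passed the filter only through HFT, being above background on 4 HFT and 2 HF arrays. Of 24 other cytokines, 13 passed the filter, with 0 past the adjusted threshold and a median difference of 0.0095. The 7 measured NF-kB and STAT transcription factors, of 10 listed, had a median difference of -0.075 with 0 past the adjusted threshold.

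Of 16 feedback inhibitors that NF-kB or cytokines induce or that blunt their signals, 14 passed the filter, with 0 past the adjusted threshold. Of the 14, 9 were below 0, beside 56.2% of all probes, and the median difference was -0.090. Socs3, which blocks Il6-type receptors, differed by -0.54 (SE 0.16), Zfp36, which destabilises cytokine transcripts, by -0.63 (SE 0.27), and Nfkbia, the inhibitor of NF-kB, by -0.28 (SE 0.16). Bcl3, an NF-kB cofactor, differed by -0.18 (SE 0.11), the Il1 decoy receptor Il1r2 by -0.12 (SE 0.23) and the Il1 receptor antagonist Il1rn by 0.59 (SE 0.52). Of 25 immediate early genes, the first transcripts a stimulated cell makes, 23 passed the filter, with 0 past the adjusted threshold. Of the 23, 20 were below 0, beside 56.2% of all probes, and the median difference was -0.30. Fos differed by -1.08 (SE 0.49), Junb by -0.90 (SE 0.35), Egr1 by -0.83 (SE 0.37) and Atf3 by -0.77 (SE 0.34). None of these lists was tested as a set.

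Of 24 receptors, inhibitors and immediate early genes listed for comparison with Cxcl1, 18 were measured; Ccr2 and Il10ra were below the filter, and Ackr1, Il1r1, Nfkbiz and Tnfaip3 were not analysed here. By r within groups, Socs3 (0.77), Junb (0.71), Fos (0.67) and Atf3 (0.63) passed adjustment over the 18 (adjusted permutation p = 0.0470 for each). Since Socs3, Junb and Fos are also among the 10 genes of highest r and the list was made with earlier results known, these p are no independent evidence. On ranks none of the 18 passed (smallest adjusted permutation p = 0.155), and without HF 10 none passed on r (smallest adjusted permutation p = 0.264). Nfkbia had r = -0.13.

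Markers of other cells were set beside Cxcl1. The median level over 7 neutrophil markers (of 12 listed) was -4.84 to -4.08 in HFT and -4.99 to -3.57 in HF, all 7 differences were below 0 with a median of -0.15, and Elane, Mmp8 and Ngp were above background on 0 arrays. All 18 macrophage markers passed, with levels of -0.34 to 0.46 in HFT and -0.73 to 0.039 in HF, 17 differences above 0 and a median of 0.29. Liver markers had all 10 differences above 0 (median 0.82), with levels of -4.94 to 0.040 in HFT and -5.37 to 0.39 in HF. Of 9 blood cell markers 7 were above 0 (median 0.29), with levels of -0.27 to 0.83 in HFT and -0.79 to 0.18 in HF. Among the 7, Epb42 passed the filter only through HFT, being above background on 7 HFT and 0 HF arrays. All 8 T and B cell markers were above 0 (median 0.21), with levels of -5.18 to -4.31 in HFT and -5.73 to -3.78 in HF. Among the 8, Cd8a passed only through HFT, being above background on 4 HFT and 2 HF arrays. All 9 endothelial markers were below 0 (median -0.21), with levels of -0.36 to 0.53 in HFT and -0.076 to 0.81 in HF. Of all probes 56.2% were below 0, and no marker in these 6 lists passed the adjusted threshold. Within groups, Cxcl1 had r = 0.22 with the neutrophil markers, 0.32 with the macrophage markers, 0.53 with the immediate early genes, -0.53 with the liver markers and -0.47 with the blood cell markers, and none of 15 such relations passed (smallest adjusted permutation p = 0.306 on r, 0.774 on rho). Without HF 8 and HF 10 these r were 0.097, 0.15, 0.099, -0.14 and -0.13. The part of these markers in the Cxcl1 values was not tested.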

How the data were processed

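Total RNA of EWAT from 16 rats was labelled with Cy3 and hybridised to 1-colour Agilent arrays, per the labels. The authors deposited spot intensities from Agilent Feature Extraction 10.7.3.1, background-subtracted and detrended but not normalized between arrays, per the file headers. The same deposited files hold Feature Extraction's 0 or 1 marks for spots well above background, saturated (0 here) or irregular. A second deposited file holds log2 values per spot, with a normalization not given in the sources. Its columns have medians of 7.33 to 7.36 and one shared maximum, each of the 16 correlated best with its own array (r of 0.998 or more), and it was used in 1 alternative fit.

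Here each processed intensity was put on the log2 scale, the array's 75th percentile was subtracted, and a probe's spots were averaged without the irregular ones. Of 62976 spots, 4259 were controls, and of 30367 probes 23 lost all spots on an array. A probe was kept when well above background on 4 or more of 8 arrays in HFT or in HF (21808 probes). Accessions were matched without version to RefSeq rat genes, which named 18005 probes (15168 genes), of which 11592 genes had a kept probe. For several probes of a gene, the one of highest mean signal was used. The array design names build rn4, so gene coordinates are not given, and promoters are those of GRCr8.

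The difference between HFT and HF came from limma's lmFit and eBayes (version 3.58.1, under R 4.3.3, with the package data.table, version 1.17.8), with Benjamini-Hochberg adjustment over all kept probes. Intervals are at 95%. Correlations used values centred within group and two-sided permutations within groups (100000 resamples, or every order of 8 animals within a group), in Python 3.11.15 with numpy 2.4.6 and scipy 1.17.1. The 10 genes, the gene lists, the genes named from them and the tests were chosen with earlier results of these data known. The other named genes are the 10 most correlated with Cxcl1. Alternatives were other normalizations, no dim-probe filter, the deposited log2 values, slide as a block and arrays or animals left out. The mean spot intensity planned for the normexp correction (offset 50) is not among the columns, so the median was used. The fit was also run on simulated data for the HFT and HF comparison (10 runs, 21808 probes). It recovered 54.5% of the probes given a 1.5-fold change, 80.1% at 2-fold and 93.3% at 4-fold, with a mean of 7.7 false calls. The simulated noise was drawn independently for each probe and array, so these shares need not hold for the measured arrays. The probes given a change were picked at random. Over all probes kept the median SE was 0.13, while Cxcl1 had an SE of 0.58, so these shares do not apply to Cxcl1. In the measured data Cxcl1, at 4.15-fold lower signal in HFT, did not pass.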

Additional observations from a re-analysis of the deposited data

Results flagged for a closer look

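Among the 18 groups of 8 animals examined (9 genes in HFT and in HF), 2 held an animal far from the rest, its gap to the next animal being over 0.526 of the group's range, which chance gives in about 1 of 20 groups. For Tnf, HF 11 was highest at -1.38, with the next HF animal at -2.01 and a gap of 0.548 of the range. For Il10, HF 10 was lowest at -7.02, with the next HF animal at -6.16 and a gap of 0.555 of the range. HF 11 was also among the 3 highest HF animals in Cxcl1, Ccl2 and Ccl7. HF 10 was the lowest HF animal in Cxcl1, Cxcl2, Ccl2, Ccl7, Tnf and Il10. No explanation was tested.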

How the results depend on the processing

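No paired analysis was possible because HFT and HF animals have no number in common. Over 27 other fits the count of probes past the adjusted threshold was 0 with 1 exception: without the arrays high for Lcn5 (chosen after seeing the data) it was 1, Acot5, named after its value was seen (difference -4.38, adjusted p = 0.0131 in limma). At an unadjusted p under 0.05 the count was 515, between 398 and 1206 in those fits, with the most when arrays high for Lcn5 or urothelial genes were left out. The count of genes that passed on Pearson's r with Cxcl1 was 4, including Il10, from whose p nothing is drawn. The count was 3 with quantile normalization, with normexp and quantile normalization and in the authors' deposited table (each without Il10). It was 0 with slide as a block, 1 without the 2 animals farthest in Cxcl1, and 1 to 4 with 1 animal left out (1 without HF 10). With slide as a block, 256 permutations allow no p below 0.0078, and r was 0.95 for Cxcl2, 0.93 for Ccl2 and 0.91 for Ccl7. The 0 there does not show that these relations were absent. Il10 moved to -0.11 with normexp and quantile normalization. Cxcl1, Cxcl2, Ccl2, Ccl7, Tnf and Il10 kept a negative HFT minus HF in every fit run, while Cxcl10 kept its sign in 8 and Il1b in 9 of 11 fits beside those leaving out 1 animal. The planned list of epididymal genes marked 0 arrays (highest excess 1.66), so Lcn5 was used in its place. The number of arrays limits the precision, and Il10 and Il6 lie near or below background. The cause of each change was not tested.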
